A study of Mus musculus with 3 samples.

Results

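The hairpins described here are those of mmu-miR-320, mmu-miR-484, mmu-miR-877, mmu-miR-1224 and mmu-miR-702, 5 mouse microRNA loci (Mir320, Mir484, Mir877, Mir1224 and Mir702) whose precursors are known to be made without the nuclear enzyme Drosha. They were chosen by name: every miR and moR entry of the read tables whose identifier carries 1 of these 5 microRNA names was taken. This gave 12 of the 2590 entries, 6 miRs and 6 moRs, which belong to 4 of the 5 loci. Mir1224 had no entry. Small RNA of primary aortic smooth muscle cells (AoSMC) from C57BL/6 mice was sequenced in 3 libraries, which form 1 group with no treatment, so that the comparisons are between RNAs of the same libraries. The cells were grown out of pieces of several aortas and harvested near confluence, and the animals behind each library are not given in the sources used here.

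A canonical microRNA (miR) is cut from a long primary transcript by Drosha, which frees the hairpin at its base, and then by Dicer, which removes the loop. A microRNA-offset RNA (moR) is the stretch that flanks a miR toward the base of the hairpin, beyond the place where Drosha cuts. The hairpins here reach Dicer by other routes. In mouse cells miR-320 comes from a short RNA polymerase II transcript that starts at the base of the hairpin and carries a cap, and miR-484 is likewise made without Drosha. The mirtrons miR-877 and miR-1224 are short introns that the spliceosome releases, and which fold into a hairpin once the lariat is opened, and miR-702 has also been described as a mirtron. No sequence outside the hairpin has to be cut off by Drosha in either route.

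The positions of the hairpins were compared with annotated genes (mm10, GENCODE M21). Mir877 (chr17:35960730-35960814, minus strand) coincided base for base with an intron of 85 bases of Abcf1, which codes for a protein of translation initiation. Mir1224 (chr16:20604452-20604536, plus strand) coincided with an intron of 85 bases of Vwa5b2. Mir702 (chr5:136991433-136991541, plus strand) lay at an intron of 102 bases of Plod3, a collagen lysyl hydroxylase, but the annotated hairpin began 9 bases before the intron, in the exon, and ended 2 bases before the end of the intron. Mir320 (chr14:70443510-70443591, plus strand) overlapped no annotated exon, and the nearest start of a protein-coding transcript, that of Polr3d on the opposite strand, was 63 bases away. Mir484 (chr16:14159626-14159692, plus strand) lay across from Marf1, with 19 bases opposite an exon of that gene. Whether reads were counted by strand is not given in the sources used here, but hairpins that mirror each other carried nearly the same reads. The 5p moR of Mir24-1 and the 3p moR of Mir3074-1 held 898 reads each. Mir126a held 441 5p and 5610 3p miR reads, where Mir126b held 444 3p and 5551 5p miR reads. Reads of the 2 strands therefore cannot be told apart at Mir484. Such mirror pairs enter the counts over all hairpins below as separate hairpins.

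RefSeq mature sequences (GRCm38.p6) were found for 4 of the 5 loci. The capitals mark the seed, bases 2 to 8, through which a microRNA pairs with its targets.
miR-484: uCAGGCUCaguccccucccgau
miR-877-5p: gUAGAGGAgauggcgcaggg
miR-877-3p: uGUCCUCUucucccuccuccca
miR-702-5p: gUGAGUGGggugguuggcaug
miR-702-3p: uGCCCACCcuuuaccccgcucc
miR-1224-5p: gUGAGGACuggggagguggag
miR-1224-3p: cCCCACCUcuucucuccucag
No 2 of these 7 share a seed. Among the 1738 mature RNAs of the table, only miR-702-5p shared its seed with another hairpin, with miR-3102-5p, which is also cut from a mirtron.

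The hairpins of the 3 loci at introns are shown because their ends are the ends of the intron. Here the capitals mark the first 2 and the last 2 bases of the intron, where the hairpin holds them.
Mir877: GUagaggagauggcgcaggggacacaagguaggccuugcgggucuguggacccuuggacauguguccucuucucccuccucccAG
Mir1224: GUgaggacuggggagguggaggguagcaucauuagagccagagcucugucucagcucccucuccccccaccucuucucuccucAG
Mir702: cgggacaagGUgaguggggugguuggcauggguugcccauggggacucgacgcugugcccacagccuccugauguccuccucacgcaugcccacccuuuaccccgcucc
Both splice site dinucleotides closed the Mir877 and Mir1224 hairpins, and the Mir702 hairpin held the first but not the last. The 3p miR of each was rich in C and U, as the last stretch of an intron is. These bases made up 90.9% of miR-877-3p, 85.7% of miR-1224-3p and 81.8% of miR-702-3p, against a median of 59.1% (quartiles 47.8% and 68.4%) over 705 different 3p mature RNAs. Of those 705, only 2, miR-877-3p included, had a share as high as that of miR-877-3p. Over the 24 3p mature RNAs of other hairpins with the same intron layout, the median was 71.7%, with wide quartiles of 43.5% and 86.4%.

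**Figure D1:**
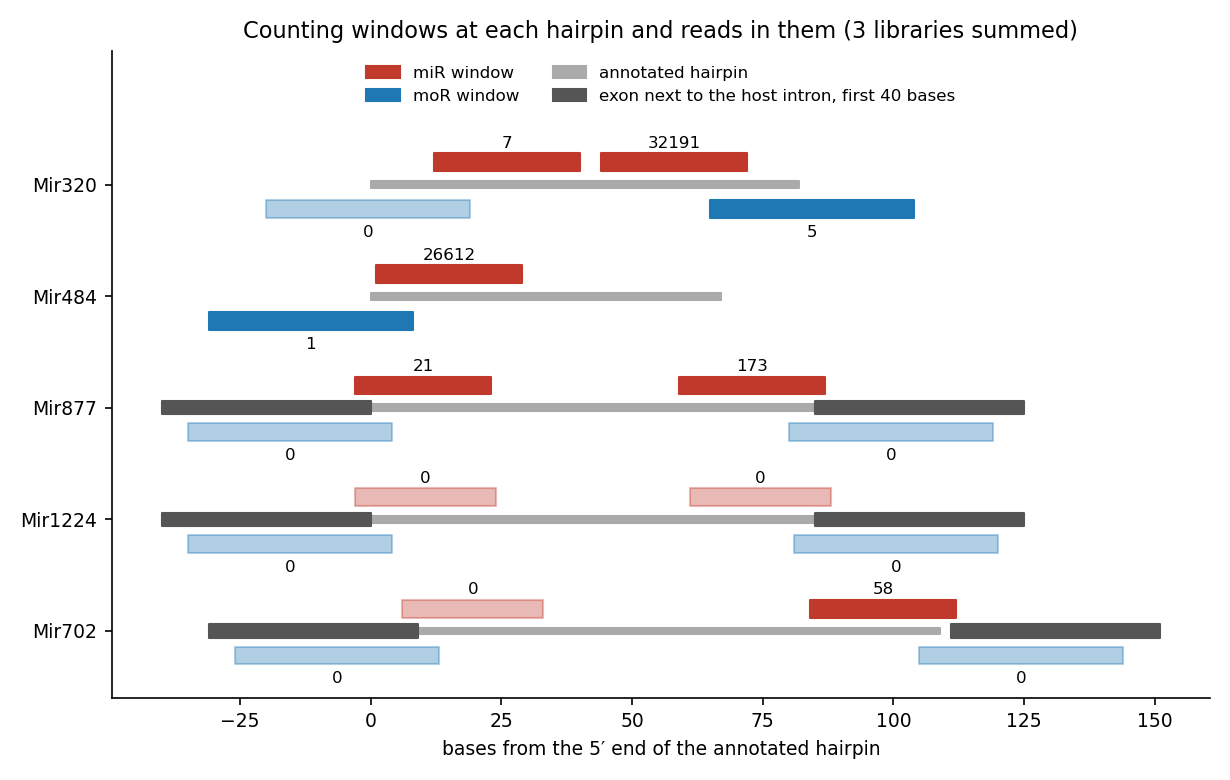
Counting windows of the miRs (red) and moRs (blue) at each hairpin, drawn to scale in bases from the 5′ end of the annotated hairpin (light grey), with the first 40 exon bases on each side of the host intron in dark grey. The number at each window is its reads summed over 3 libraries, and pale windows had 0: reads fill the 3p miR windows of Mir320 (32191), Mir877 (173) and Mir702 (58) and the miR window of Mir484 (26612), and the moR windows hold 5, 1 or 0.

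The libraries held 15123616 to 18636286 mapped reads, of which 73.1% to 83.0% lay in a miR or moR window. Levels are given as RPMR, the authors' reads per 1000000 reads in all these windows. A single read was worth 0.0659 to 0.0797 RPMR, and 3 reads, the upper limit that a count of 0 allows, 0.198 to 0.239 RPMR. miR-143-3p, a marker of smooth muscle, averaged 50855.4 RPMR and miR-145a-5p 1194.9 RPMR. Of the markers of other cells, miR-126a-3p of endothelium stood at 135.6 RPMR, miR-122-5p of liver at 1.64 RPMR, and the blood (miR-142a-3p, miR-223-3p, miR-451a) and striated muscle (miR-1a-3p, miR-133a-3p) markers below 0.4 RPMR on average. miR-208a-3p, a heart marker, had no entry. miR-206-3p, a further miR of skeletal muscle that was added after its values were seen, stood much higher, at 138.3 ± 19.2 RPMR (SD, n = 3); its part in the levels below was not tested. miR-21a-5p, the most abundant miR, averaged 517698.4 ± 25157.6 RPMR and its partner miR-21a-3p 89.2 ± 13.9 RPMR (SD, n = 3).

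miR-320-3p and miR-484 were abundant in these cells, the mirtron miRs were scarce, and the moR windows of all 5 loci together held 6 reads beside 59062 miR reads. miR-320-3p had 735.1, 782.2 and 814.2 RPMR in replicates 1, 2 and 3, a mean of 777.2 ± 39.8 RPMR (SD, n = 3). This placed it 69th by mean among the 1135 miR entries with reads, and between 67th and 69th in each library. A miR with several loci has an entry for each locus. miR-484 had 652.4, 609.0 and 664.1 RPMR, a mean of 641.8 ± 29.0 RPMR (SD, n = 3), and ranked 77th. The 3 values of each lay close together: the coefficient of variation was 5.12% for miR-320-3p and 4.52% for miR-484, where the median over the 101 miRs of 100 to 1000 RPMR was 12.1%. miR-320-3p exceeded miR-484 in 3 of 3 libraries, by 1.13 to 1.28 times, and their values did not overlap. In cultures measured in bulk, fewer cells that make an RNA and less of it per cell cannot be told apart.

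The miR of Mir877 was detected at a far lower level. miR-877-3p had 63, 50 and 60 reads, or 4.62, 3.99 and 3.95 RPMR, a mean of 4.19 ± 0.377 RPMR (SD, n = 3). Its partner miR-877-5p had 5, 10 and 6 reads, a mean of 0.520 ± 0.241 RPMR. Replicate 2 had the most 5p reads and the fewest 3p reads. These counts are small, and the 95% exact binomial intervals of the 5p share of the hairpin overlapped. They ran over 2.43% to 16.3% for replicate 1, over 8.29% to 28.5% for replicate 2 and over 3.41% to 18.7% for replicate 3.

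miR-702-3p had 29, 12 and 17 reads, or 2.13, 0.956 and 1.12 RPMR, a mean of 1.40 ± 0.634 RPMR (SD, n = 3). Replicate 1 stood highest, and its exact Poisson interval of 1.42 to 3.06 RPMR overlapped that of replicate 2, 0.494 to 1.67 RPMR. These intervals cover counting error only, since reads made by PCR are not independent molecules. miR-702-5p had 0 reads in all 3 libraries, and so had both miRs of Mir1224. All 4 windows of Mir1224 are in the tables of locations, so the 0 is a count and not a missing window. With the set limit of 3 reads, each of them is held to 0.198 to 0.239 RPMR in a library, and lower levels were not detectable at this depth.

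In order of level the miRs with reads were thus miR-320-3p, miR-484, miR-877-3p, miR-702-3p, miR-877-5p and miR-320-5p. The step between miR-484 and miR-877-3p was 153.3-fold, and each of the other steps was 1.21-fold to 3.13-fold. No 2 neighbours overlapped over the 3 libraries, although the last 3 rest on 58, 21 and 7 reads in all. miR-320-3p made up 54.5% of the miR reads of these hairpins and miR-484 45.1%, so that the loci at introns held less than 1% of them. The miRs whose levels ran nearest to those of the hairpins, by distance in log2(RPMR + 0.1) over 3 libraries, were miR-744-5p for miR-320-3p (mean 760.3 RPMR, distance 0.21), miR-218-5p at its Mir218-2 locus for miR-484 (644.2 RPMR, distance 0.07), miR-677-5p for miR-877-3p (4.36 RPMR, distance 0.10) and miR-466g for miR-702-3p (1.35 RPMR, distance 0.32). The 5p miR held 26737 reads at Mir218-2 and 26011 at Mir218-1. Shared reads were split evenly between loci, so the level of miR-218-5p given here is that of a single locus.

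**Figure D2:**
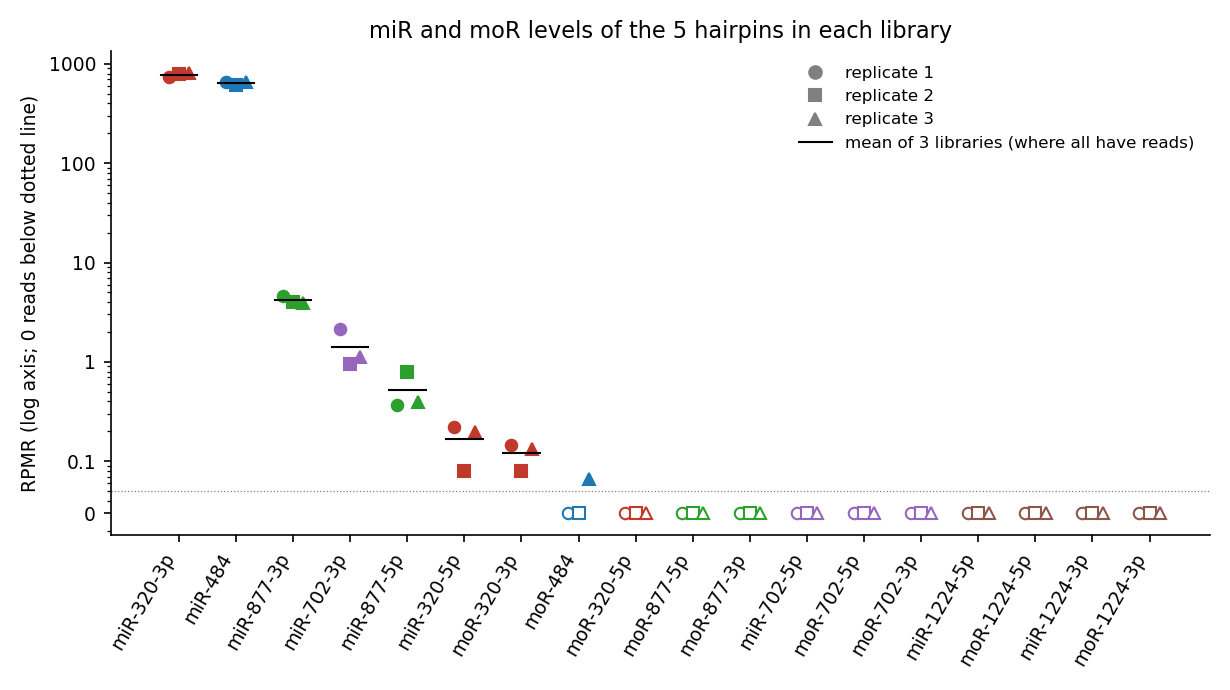
RPMR (log axis) of each miR and moR of the 5 hairpins in replicates 1, 2 and 3; bars are means over the 3 libraries, drawn where all 3 had reads, and open symbols below the dotted line are 0 reads. miR-320-3p and miR-484 lie between 609.0 and 814.2 RPMR in every library, while the moRs with reads, moR-320-3p and moR-484, stay below 0.15 RPMR.

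The first comparison asked which arm of each hairpin gave more miR reads. Whether both arms were captured equally well in the libraries was not tested. In the 3 hairpins that could be tested the 3p miR was the more abundant, and the difference was largest in Mir320. In Mir320 the 5p miR had 3, 1 and 3 reads, against 10021, 9814 and 12356 reads of the 3p miR in the same libraries. The 5p share of the hairpin was 0.0217% over the 3 libraries (95% exact binomial interval 0.00874% to 0.0448%), and the 3p miR had 4598.7 reads for each 5p read (interval 2231.7 to 11439.0). The log2 difference of 5p over 3p was -12.09 ± 0.25 (edgeR's quasi-likelihood test, blocked by library, Benjamini-Hochberg adjusted p = 4.0e-15). For log2 differences, here and below, the value after ± is the size of the difference divided by the square root of the test's F statistic. It is not a direct standard error, and the exact interval above is wider. In Mir877 the 5p miR held 21 reads, against 173 of the 3p miR, a log2 difference of -3.02 ± 0.30 (edgeR adjusted p = 2.6e-07). In Mir702 the 5p miR held 0 reads, against 58 of the 3p miR (edgeR adjusted p = 3.3e-06), so that the 3p miR was at least 19.3-fold higher, with 3 reads over the 3 libraries as the floor for the 5p miR. The 95% exact binomial interval of its 5p share reached 6.16%, above the 5.17% of that floor.

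Thus 3 of the 3 hairpins tested were called higher in the 3p miR, which was the call of 45.5% of all 433 hairpins tested; 42.7% were called higher in the 5p miR. The median log2 difference over the 433 hairpins was -0.27. Mir1224, with 0 reads, and Mir484, with a single annotated miR on the 5p arm, had no such test. The weaker arm took a median of 2.97% of the reads of a hairpin over the 433 (quartiles 0.0424% and 16.7%), so that the 10.8% of Mir877 lay inside these quartiles and the 0.0217% of Mir320 below them. Of the 67 hairpins with at least as many miR reads as Mir320, itself included, 5 had a weaker arm of lower share.

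**Figure D3:**
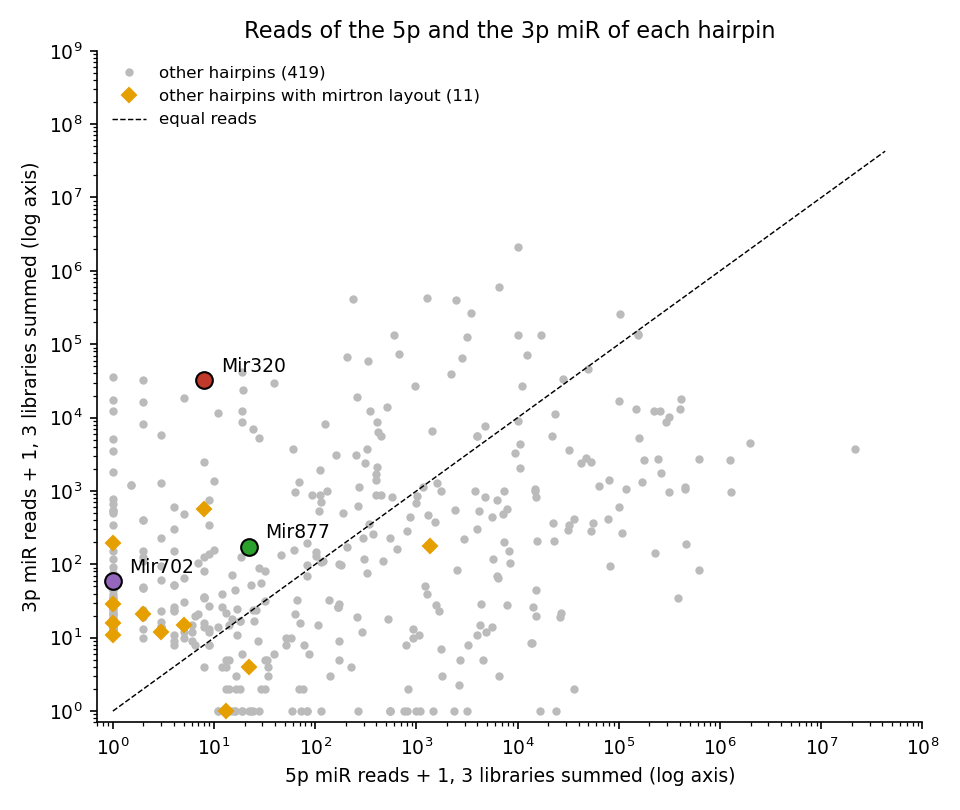
Reads of the 5p miR (horizontal) and the 3p miR (vertical) of each of 433 hairpins, 3 libraries summed, 1 added, log axes, with the dashed line at equal reads. Mir320 (7 against 32191), Mir877 (21 against 173) and Mir702 (0 against 58) lie above the line, as do 8 of the 11 other hairpins with mirtron layout, while the grey hairpins lie on both sides.

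The second comparison asked how many offset reads lay beside the miRs. moR-320-3p had 2, 1 and 2 reads, a mean of 0.119 ± 0.0352 RPMR (SD, n = 3), and moR-320-5p had 0 in all libraries. moR-484 had 0, 0 and 1 read, so that it rests on 1 library. The 5p and 3p moRs of Mir877, Mir1224 and Mir702 had 0 reads. Reads of a moR were therefore seen at 2 of the 5 loci, or 2 of the 4 with entries, all of which had miR reads. Of all 742 hairpins with miR reads, 28.7% had moR reads. Mir320 and Mir484 are the loci not tied to an intron, and they also had by far the most miR reads. At Mir320 the moR reads lay on the 3p arm, which also carried the abundant miR, and at Mir484 only the 5p arm had windows. moR-320-3p stood near its own partner arm in level: it had 5 reads in all, against 7 of miR-320-5p.

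In the arms that had a moR read the miR exceeded it by far. For Mir320 the 3p moR had 5 reads, against 32191 of the 3p miR, a log2 difference of moR over miR of -12.55 ± 0.41 (edgeR adjusted p = 7.0e-114). For Mir484 the moR had 1 read, against 26612 of the miR (edgeR adjusted p = 6.0e-115), and the miR had 26612.0 reads for each moR read with an exact counting interval of 4775.9 to 1051156.9. This call, higher in the miR, was made for 2 of 2 arms of these hairpins and for 92.1% of all 241 arms tested (5.39% were called higher in the moR), with a median log2 difference of -8.71 over them, so it is the usual one. Only arms with at least 1 moR read entered this test, and the other 7 arms of the 5 loci did not. The trimmed mean (TMM) scaling, which shifts the median of all arms to -0.45, left both differences negative, at -4.28 for Mir320 and -6.33 for Mir484. It changed the calls over all arms to 64 higher in the moR and 104 higher in the miR, against 13 and 222 without it.

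The moR reads were then set beside those of hairpins of like level. The highest miR of 79 hairpins lay between 100 and 1000 RPMR, and 73.4% of these 79 hairpins had a moR read, Mir320 and Mir484 among them. The median hairpin of the 79 had 2 moR reads, beside 5 at Mir320 and 1 at Mir484, counts too small to be ordered. More than 5 were held by 33 hairpins. Relative to the miR, Mir320 had 155.3 moR reads per 1000000 miR reads (95% exact interval 50.4 to 362.4), and Mir484 had 37.6 (0.951 to 209.4). The median of the 79 hairpins was 227.3 per 1000000, with quartiles of 0 and 1306.8. Both ratios lay below the median, which was inside the interval of Mir320 and above that of Mir484. The lower quartile of 0 is the lowest ratio possible, so no hairpin could lie below it. Mir320 had 5 moR reads, against 7.32 at the median ratio, and Mir484 had 1, against 6.05 at that ratio. At the ratio of the summed reads of the 79 hairpins, 1957.6 per 1000000, they would have had 63 and 52.1. The shortfall therefore depends on the ratio chosen. A lower ratio than that of Mir320 was found in 30 of the 79 hairpins and a lower one than that of Mir484 in 23, of which 21 had no moR read at all. Above 1000 RPMR 98.2% of 57 hairpins had a moR read.

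For the mirtrons the depth was too low to tell. The hairpins of 1 to 10 RPMR, among them Mir877 and Mir702, had a moR read in 20.2% of 109 cases, and the median ratio was 0. With 194 miR reads at Mir877 and 58 at Mir702, a count of 0 moR reads still allows up to 15463.9 and 51724.1 moR reads per 1000000 miR reads. Their moR windows also differed in kind from those of the other loci. Of the 39 bases of each moR window, 33 to 35 lay in the exons next to the intron at Mir877, Mir1224 and Mir702, and none lay in an exon of the same strand at Mir320 and Mir484. A read counted in the windows at the introns could thus have come from the messenger RNA of Abcf1, Vwa5b2 or Plod3 as well, and none was counted. At Mir484, 19 bases of the hairpin lie opposite an exon of Marf1, and reads of the strands cannot be told apart. Overlap of the moR windows with exons of the opposite strand was not measured.

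**Figure D4:**
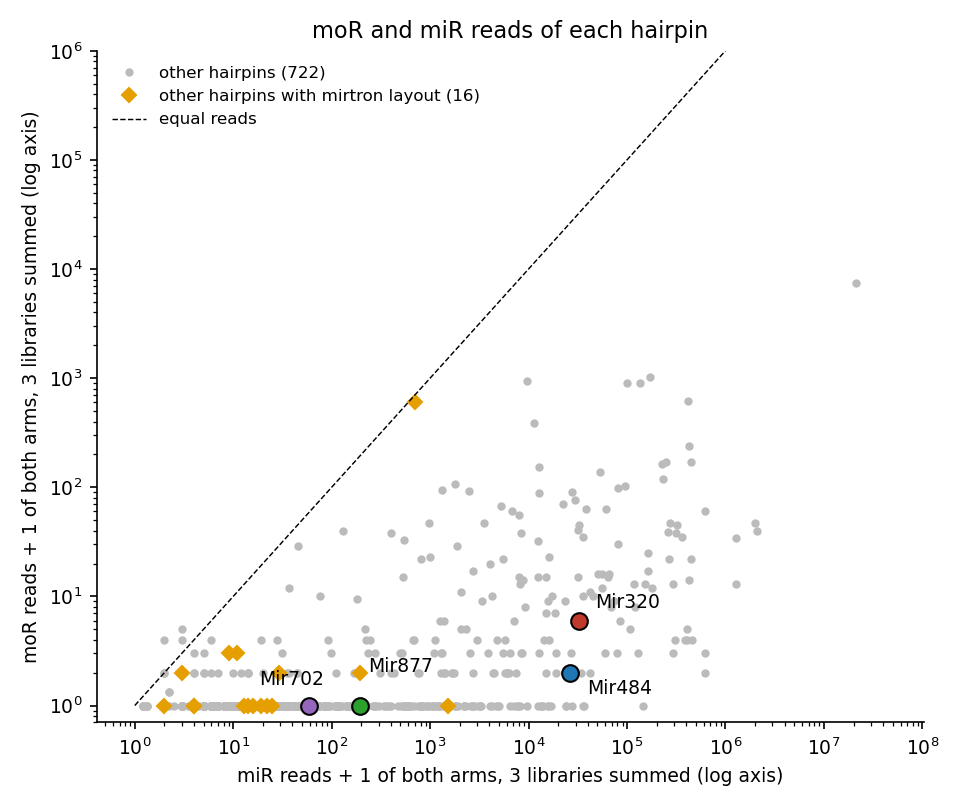
moR reads (vertical) and miR reads (horizontal) of each hairpin with miR reads, both arms and 3 libraries summed, 1 added, log axes, with the dashed line at equal reads. Mir320 (5 moR reads) and Mir484 (1 moR read) lie among the grey hairpins of like miR reads, which run from 0 moR reads upward, Mir877 and Mir702 lie at 0 moR reads, and the single mirtron-layout hairpin near the dashed line is Mir3102.

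Mirtrons elsewhere in the genome served to place the 3 loci at introns. By the annotation 28 other hairpins with counting windows lay on the strand of an intron of at most 150 bases with both ends within 10 bases of those of the hairpin or its miRs. Of these, 16 had miR reads and 12 had 0, and the highest miR exceeded 1 RPMR in 3. These were miR-1981-5p at 32.9 ± 2.67 RPMR, in an intron of Marc2, miR-3102-3p at 13.7 ± 1.80 RPMR, in Arhgef17, and miR-6944-3p at 4.67 ± 0.277 RPMR, in Dbn1 (SD, n = 3). miR-877-3p, at 4.19 RPMR, was thus close to miR-6944-3p, and miR-702-3p, at 1.40 RPMR, was above the other 25. In 8 of the 11 tested the 3p miR was called higher and in 3 the 5p miR, beside the 45.5% and 42.7% of all hairpins. The 5p calls were Mir1981 (log2 difference 2.93 ± 0.20), Mir1231 (2.66 ± 0.67) and Mir3062 (5.04 ± 1.36), and Mir6944, with 0 reads of the 5p and 193 of the 3p miR, had the most one-sided reads of the 3p calls.

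Besides Mir3102, 15 of these hairpins had miR reads and 5 of the 15 (33.3%) also had moR reads, beside 28.7% of all 742 hairpins with miR reads. They came to 7 moR reads, at most 2 at a hairpin, against 1885 miR reads. Mir3102 had 604 moR reads, of which the window called moR-3102-3p.2-3p held 229, 173 and 195 in the 3 libraries. All 29 bases of the window of miR-3102-3p lie inside that moR window, because Mir3102 carries a second miR pair nested within the outer one. A read of miR-3102-3p therefore also falls within the moR window, and miR-3102-3p had 215, 165 and 187 reads. This leaves at least 30 of the 597 moR reads, 14, 8 and 8 in the 3 libraries, that are not reads counted for miR-3102-3p, and the others cannot be told apart from that miR.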

How the data were processed

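Small RNA of AoSMC was sequenced in 3 libraries (TruSeq small RNA, single reads of 75 bases). Per the labels, the authors trimmed adaptors, mapped inserts longer than 13 bases to mm10 with Bowtie (0 mismatches, at most 5 loci), and split reads near more than 1 precursor evenly. A read was counted for a miR inside its coordinates widened by 3 bases, and for a moR inside the stretch from 3 bases inward to 35 bases outward of that miR's outer end. The deposited raw reads are therefore estimated counts, 96.1% of them whole within 1e-09; all reads of the 5 hairpins were whole. RPMR, also deposited by the authors, is an RPM value whose denominator is the library's total over all windows. The entries summed to the deposited window totals within 7.5e-09, so a window without an entry had 0 reads. Deposited starts were read as 1-based, since after removal of the 3 added bases 1670 of 1679 miRs had the RefSeq start and end.

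Counts were rounded and tested with edgeR 4.0.16 (R 4.3.3; glmQLFit, glmQLFTest, window totals as library sizes, library as block) over all hairpins or arms with at least 10 reads, with Benjamini-Hochberg adjustment and a threshold of 0.05. The block follows from the design: both RNAs of a pair were counted in the same library. On simulated counts the arm test called 89.9% of 69 hairpins changed 4-fold, 100.0% of 72 changed 16-fold and 1.41% of 283 unchanged ones, among 424 hairpins. The moR test called 95% of 40 arms changed 4-fold among 238. The simulation drew negative binomial counts at a single fixed dispersion. Both RNAs of an unchanged pair had the same level, and libraries differed in total only. These shares hold for that setting and were not measured for the spread of the real libraries. Alternatives were no block, DESeq2 1.42.0, TMM factors, other read minimums, other denominators and each library left out. The labels call the libraries biological replicates. Nothing further says what separates them. The p-values reflect no more than how these samples spread, possibly for technical reasons, with the spread estimated jointly over all hairpins or arms. Counts of each pair of libraries differed beyond sampling noise. Chi-square per degree of freedom was 266.1 for replicates 1 and 2 and 300.7 for replicates 1 and 3. For replicates 2 and 3 it was lower, at 38.3. Intervals are exact 95% Clopper-Pearson or Poisson.

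The hairpins, lists and tests were chosen with earlier results of these data known. Named were every entry of the 5 loci, the nearest other miR of each, mir-21a, cell markers, hairpins with mirtron layout above 1 RPMR, and 6 other hairpins of noncanonical origin; miR-206-3p, Mir1231, Mir3062 and the moR counts of single hairpins were added after their values were seen. Genes and introns are from GENCODE M21 and sequences from RefSeq.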

Additional observations from a re-analysis of the deposited data

How the results depend on the processing

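The 3p call of Mir320, Mir877 and Mir702 held under all 8 alternatives, with log2 differences of 5p over 3p between -13.09 and -11.80, -4.03 and -2.76, and -7.94 and -6.62, and with adjusted p of at most 2.1e-04, 9.2e-04 and 6.5e-03. The miR call held under all 8 alternatives for the 3p arm of Mir320 (-12.74 to -4.28) and under the 7 that could be fitted for Mir484 (-14.59 to -6.33). With TMM factors the edgeR adjusted p was 2.9e-17 and 4.9e-18, the highest of the alternatives. Without replicate 3 moR-484 had 0 reads and no test. Without the replicate block the log2 differences were -12.09, -3.02, -7.28, -12.55 and -14.24, and no call changed.

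Over all arms, TMM factors gave 64 arms higher in the moR and 104 higher in the miR, against 13 and 222, and leaving out a library gave 6 to 11 higher in the moR. The test of the 5p moR against the 3p moR, which no hairpin described here entered for want of reads, called 66 hairpins higher in the 5p and 9 in the 3p moR. TMM factors gave 29 and 12, a minimum of 30 reads 42 and 4, DESeq2 51 and 4, and leaving out a library 38 to 55 and 3 to 5. Per 1000000 mapped reads, the means were 617.9 for miR-320-3p, 508.9 for miR-484 and 3.31 for miR-877-3p; the order of the miRs was kept. A moR read was found in 67.7% of hairpins whose highest miR reached 10 RPMR, in 49.6% where a moR needed 3 reads, which Mir320 passed and Mir484 did not, in 52.2% from 1 RPMR and in 83.8% from 100 RPMR. Without a library this share was 61.8% to 64.2%. The moR counts of these hairpins are limited by depth: 1 to 5 reads in all cannot be ordered, and 0 reads at the mirtrons set only a wide limit. The causes of these shifts were not tested.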

Other observations

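Of 6 hairpins listed for another noncanonical origin, 2 of them (Mir1981 and Mir3102) among the mirtrons above, 4 exceeded 1 RPMR. Mir1839, which lies in a box H/ACA small nucleolar RNA, stood apart from the mirtrons in level. miR-1839-5p had 2140, 2339 and 2827 reads, a mean of 176.6 ± 17.0 RPMR (SD, n = 3), and miR-1839-3p averaged 4.90 ± 1.02 RPMR. The 5p miR was the higher one, with a log2 difference of 5.18 ± 0.19 (edgeR adjusted p = 1.8e-12), and its 2 moR windows held 1 read in all. Mir664, from the same class of RNA, had 8.14 ± 1.82 RPMR of the 5p miR and 8.49 ± 0.867 RPMR of the 3p miR, a log2 difference of -0.08 ± 0.21 (edgeR adjusted p = 7.3e-01). Its moRs had 0, 2 and 1 reads in the 3 libraries, all on the 5p arm. miR-451a, which is cut by Argonaute 2 in place of Dicer and marks red blood cells, had 1, 1 and 2 reads. Mir712, placed in a spacer of ribosomal RNA, had no entry in the read tables.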
